A study of Mus musculus with 10 samples.

Results

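The 10 genes described here are expressed by the macrophages of the liver. Clec4f, Vsig4, Cd5l, Timd4 and Marco mark Kupffer cells, the macrophages that reside in the liver sinusoids, and are called resident genes below. Adgre1, Csf1r, Cd68, Lyz2 and C1qa are expressed by macrophages in general and are called general genes. The genes were taken by symbol and not by their values, and they are 10 of the 16697 genes of a table of mouse liver RNA sequencing. The 10 libraries came from normal liver (NL, n = 4), from tumors induced with c-MYC and the empty vector pT3 (c-MYC/pT3, n = 3) and from tumors induced with c-MYC and FOXO1AAA (c-MYC/FOXO1AAA, n = 3), a constitutively active FOXO1 that carries a MYC tag. The plasmids were given by hydrodynamic tail vein injection, by which hepatocytes take up DNA, with the sleeping beauty transposase for integration and the EF1α promoter for expression. The labels give WT genotype and the C57BL/6 strain for every sample, whereas the methods of the study name FVB/N mice. The descriptions of the c-MYC/pT3 mice differ on whether a plasmid for MCL1, an inhibitor of apoptosis, was injected too. Mice of both sexes were used, neither sex nor age is given for any library, and tumor-bearing mice were killed once their tumor burden was high. Nothing states whether a tumor library holds 1 nodule or several, so the p-values measure the spread between these libraries, which may in part be technical.

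Kupffer cells are seeded in the liver before birth and renew themselves there. They take up bacteria, old red blood cells and other particles from the portal blood. When they are lost, monocytes from the blood can enter the liver and acquire the Kupffer genes step by step, with Timd4 among the late ones. Tumors hold macrophages of both origins, and genes such as Cd68 and Lyz2 are shared by them, whereas Clec4f is a Kupffer gene of rodents. The comparison of c-MYC/FOXO1AAA with c-MYC/pT3 tumors asks which molecular features of the tumor differ with an active FOXO1, and the comparison of each with NL gives the background of the normal organ.

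The level is given as FPKM, reads scaled to the length of the transcript and to an effective library size set by the authors. The libraries held 13123719 to 20547746 reads in the listed genes. The effective size set by the authors was 0.65 to 0.68 times the reads in NL, 1.26 to 1.29 times in c-MYC/pT3 and 1.4537 to 1.5021 times in c-MYC/FOXO1AAA, so comparisons of tumor with NL depend on this scaling. As a check of the tissue, the summed FPKM of 6 hepatocyte markers was 80500 to 90700 in NL, 3260 to 5090 in c-MYC/pT3 and 873 to 1550 in c-MYC/FOXO1AAA. In bulk tissue, fewer macrophages and less RNA of a gene per macrophage cannot be told apart.

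The promoters of 4 resident genes are shown because these genes moved as pairs, Clec4f with Vsig4 and Cd5l with Timd4. Each sequence ends before the first annotated base of the transcript and is written 5′ to 3′ on the strand of the gene. The sequences come from RefSeq (GRCm38.p6), whose transcript starts can differ from the gene positions given below. Capitals mark matches, on either strand, to CACGTG (the E-box of MYC), TGTTTAC (forkhead factors, to which FOXO1 belongs), GAGGAAG (PU.1, the ETS factor of macrophages) or TGCTGA (read by MAF factors). The Clec4f stretch is chr6:83656188-83656366 (minus strand, 179 bases, cut short of an upstream transcript start), the Vsig4 stretch chrX:96293439-96293688 (minus strand), the Cd5l stretch chr3:87357631-87357880 (plus strand) and the Timd4 stretch chr11:46810549-46810798 (plus strand).
Clec4f: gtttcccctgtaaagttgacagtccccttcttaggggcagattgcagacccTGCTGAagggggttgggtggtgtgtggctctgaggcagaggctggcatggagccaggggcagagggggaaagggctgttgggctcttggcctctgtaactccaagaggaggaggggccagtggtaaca
Vsig4: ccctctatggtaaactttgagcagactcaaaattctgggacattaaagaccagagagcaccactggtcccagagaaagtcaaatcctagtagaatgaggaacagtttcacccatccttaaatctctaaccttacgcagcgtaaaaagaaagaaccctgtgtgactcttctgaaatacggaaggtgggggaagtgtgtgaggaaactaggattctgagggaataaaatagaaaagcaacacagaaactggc
Cd5l: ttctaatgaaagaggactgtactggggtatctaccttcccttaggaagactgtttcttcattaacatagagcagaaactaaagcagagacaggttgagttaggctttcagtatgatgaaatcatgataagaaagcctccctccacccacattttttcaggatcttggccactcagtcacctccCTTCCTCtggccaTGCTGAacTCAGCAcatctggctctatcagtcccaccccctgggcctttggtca
Timd4: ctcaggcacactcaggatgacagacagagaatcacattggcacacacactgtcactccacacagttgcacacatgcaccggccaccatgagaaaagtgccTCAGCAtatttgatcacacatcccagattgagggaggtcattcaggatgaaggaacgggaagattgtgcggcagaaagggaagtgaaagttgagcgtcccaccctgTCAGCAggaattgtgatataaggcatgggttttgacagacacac

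In the 250 bases before the start, Clec4f had 1 match to the MAF motif, Cd5l had 2 and Timd4 had 2, and Cd5l also matched PU.1, 67 to 61 bases before the start. Vsig4 matched none of the 4 motifs. Of the other members, 3 had a promoter in the RefSeq table: Marco matched PU.1, Lyz2 matched the MAF motif and Cd68 matched none. None of these 7 promoters matched the E-box or the forkhead motif. Among all 32851 promoters, windows of this length held the E-box in 6.02%, the forkhead motif in 3.17%, PU.1 in 10.6% and the MAF motif in 16.1%. These are matches of letters, and no binding was measured here.

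Clec4f and Vsig4 fell in both tumor types, most in c-MYC/pT3, where Clec4f was 53.5-fold lower than in NL. Clec4f encodes a C-type lectin receptor found on Kupffer cells, and the gene lies at chr6:83644542-83656187 on the minus strand (GRCm38). It stood at 243.9, 177.3, 148.6 and 262.5 FPKM in the 4 NL libraries, at 5.21, 1.42 and 7.36 FPKM in c-MYC/pT3, and at 16.2, 25.4 and 12.8 FPKM in c-MYC/FOXO1AAA. The 3 groups did not overlap, with NL highest and c-MYC/pT3 lowest. The log2 fold change was -5.74 (SE 0.49, adjusted p = 5.16e-06) in c-MYC/pT3 versus NL and -3.54 (SE 0.49, adjusted p = 0.000192) in c-MYC/FOXO1AAA versus NL. Between the tumors, Clec4f was 4.59-fold higher in c-MYC/FOXO1AAA, a log2 fold change of 2.20 (SE 0.53, adjusted p = 0.0237). Clec4f thus passed the test in all 3 comparisons. The call between the tumors was lost without c-MYC/FOXO1AAA replicate 1 (2.25, adjusted p = 0.0541), without replicate 2 of that group (1.92, adjusted p = 0.087) and against a threshold of 2-fold (adjusted p = 0.109). Without c-MYC/pT3 replicate 2, the lowest library, the difference between the tumors was 1.49 (adjusted p = 0.0418), and that of c-MYC/pT3 from NL was -5.03 (adjusted p = 1.83e-06). The adjusted p between the tumors ranged from 0.00483 to 0.109 over 23 alternatives. The c-MYC/pT3 values rest on 56, 14 and 80 reads, against 881 to 1637 in NL.

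Vsig4 encodes a complement receptor by which Kupffer cells bind particles coated with C3, and lies at chrX:96247203-96293438 (minus strand). Its FPKM was 16.4, 10.5, 9.31 and 18.9 in NL, 0.539, 0.0827 and 1.11 in c-MYC/pT3, and 1.70, 2.42 and 2.15 in c-MYC/FOXO1AAA. Again no group overlapped another, and the order was that of Clec4f. Replicate 2 of c-MYC/pT3 held 0 reads of Vsig4, which allows up to 3 reads, and its FPKM is the small constant that the authors added. The other c-MYC/pT3 libraries held 12 and 27 reads. Vsig4 was lower in c-MYC/pT3 than in NL (log2 fold change -5.17, SE 0.71, adjusted p = 0.000163), and c-MYC/FOXO1AAA tumors were below NL too (-2.68, SE 0.71, adjusted p = 0.0145). The difference between the tumors, 2.49 (SE 0.76), did not pass the threshold (adjusted p = 0.0556), although all c-MYC/FOXO1AAA libraries were above all c-MYC/pT3 libraries. Without c-MYC/pT3 replicate 3 it passed, at 3.29 (adjusted p = 0.00659), and without replicate 2, which held no read, it was 1.42 (adjusted p = 0.0963). With 0.1 FPKM added before the logarithm it was 2.06 (adjusted p = 0.0493), and with 1 FPKM added it was 1.02 (adjusted p = 0.249). The difference of c-MYC/pT3 from NL was called without either library, at -4.09 (adjusted p = 2.2e-05) without replicate 2 and -5.97 (adjusted p = 4.74e-05) without replicate 3.

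Marco encodes a scavenger receptor that binds bacteria, and lies at chr1:120474538-120505024 (minus strand). It had the lowest mean of the 5 resident genes in NL, at 2.84, 1.83, 2.62 and 4.00 FPKM. It was at 0.967, 0.420 and 0.882 FPKM in c-MYC/pT3 and at 0.926, 1.58 and 1.52 FPKM in c-MYC/FOXO1AAA. All tumor libraries were below all NL libraries, and the tumor types overlapped. Marco was lower in c-MYC/pT3 than in NL (log2 fold change -1.93, SE 0.37, adjusted p = 0.0052), a call that was lost with an equal FPKM total in each library (-1.01, adjusted p = 0.183). Against NL, the c-MYC/FOXO1AAA value of -1.06 (SE 0.37) did not pass (adjusted p = 0.177). Between the tumors, the value of 0.88 (SE 0.39) did not pass either (adjusted p = 0.563). The tumor libraries held 13 to 87 reads of Marco.

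**Figure D1:**
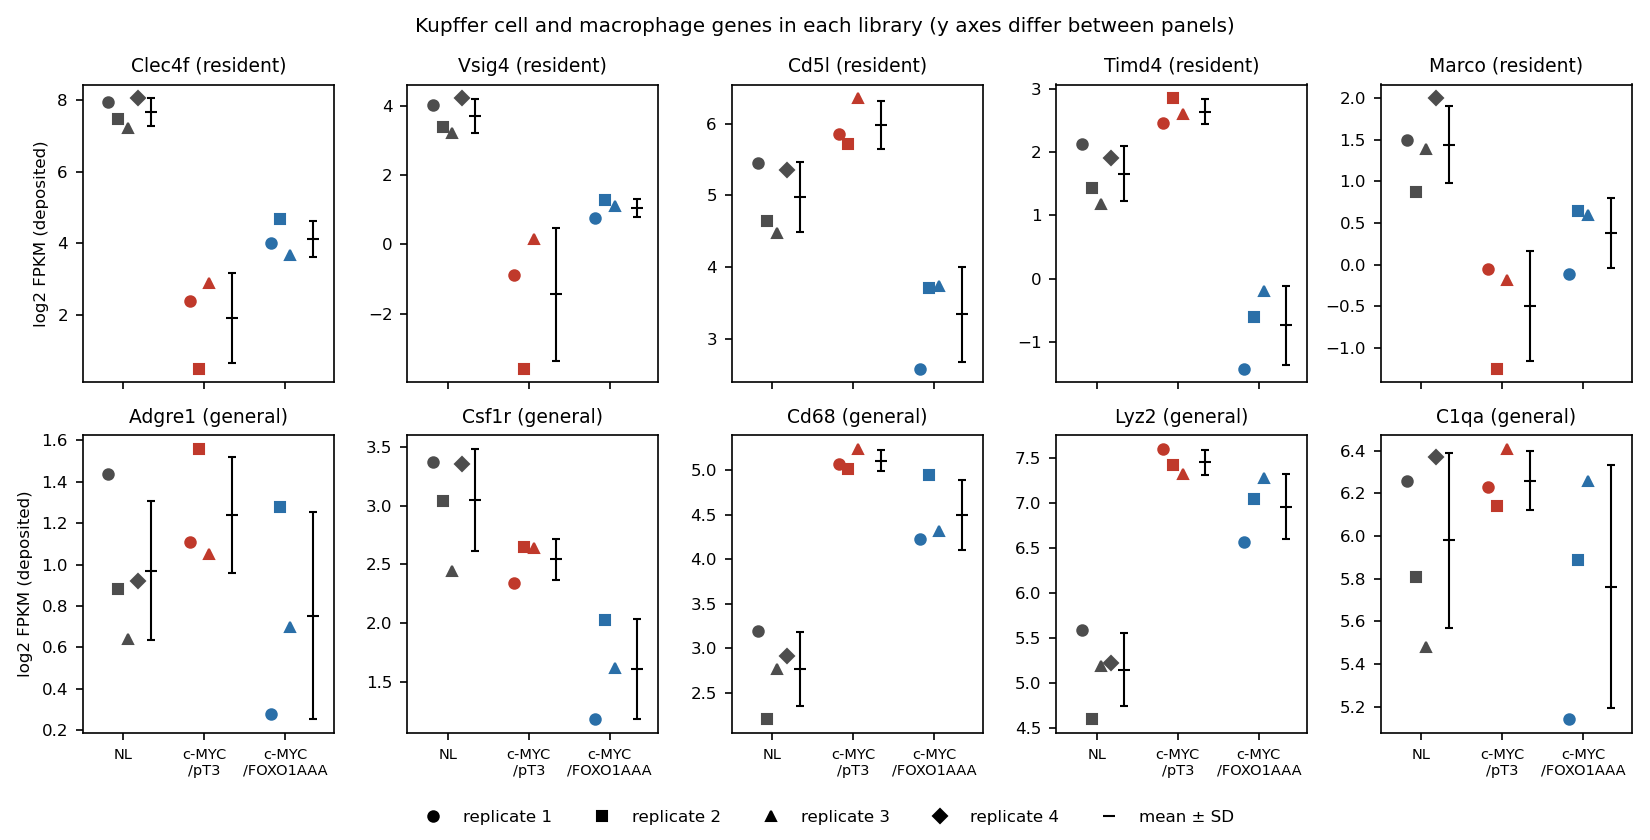
Each panel plots 1 gene, with the 3 groups on the x axis and the deposited log2 FPKM on the y axis, whose range differs between panels. Points are libraries, shapes are replicate numbers and bars are the mean ± SD. Clec4f and Vsig4 are lowest in c-MYC/pT3, Cd5l and Timd4 are lowest in c-MYC/FOXO1AAA, and Cd68 and Lyz2 are lowest in NL.

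Cd5l and Timd4 had another order, with the highest levels in c-MYC/pT3 and the lowest in c-MYC/FOXO1AAA. Timd4 encodes a receptor for phosphatidylserine, by which macrophages take up dying cells, and lies at chr11:46810800-46844332 (plus strand). Its FPKM was 4.39, 2.69, 2.27 and 3.75 in NL, 5.52, 7.24 and 6.09 in c-MYC/pT3, and 0.372, 0.655 and 0.876 in c-MYC/FOXO1AAA. The groups did not overlap. Timd4 was 10.4-fold lower in c-MYC/FOXO1AAA tumors than in c-MYC/pT3 (log2 fold change -3.38, SE 0.34, adjusted p = 3.94e-05). These tumors were also below NL (-2.40, SE 0.32, adjusted p = 0.000215). The c-MYC/pT3 value against NL was 0.98 (SE 0.32), which did not pass the test against a 1.5-fold change (adjusted p = 0.214). Without that fold threshold it passed (adjusted p = 0.0157), and with an equal FPKM total in each library it was 1.91 (adjusted p = 0.0012). So the fall in c-MYC/FOXO1AAA passed against both other groups, and the value in c-MYC/pT3 depended on the threshold and the scaling. The c-MYC/FOXO1AAA values rest on 17, 39 and 35 reads.

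Cd5l encodes a secreted protein of macrophages that circulates in the blood, also known as apoptosis inhibitor of macrophages, and lies at chr3:87357881-87371073 (plus strand). It stood at 43.9, 25.0, 22.3 and 40.9 FPKM in NL, at 58.2, 52.6 and 82.0 FPKM in c-MYC/pT3, and at 5.96, 13.1 and 13.4 FPKM in c-MYC/FOXO1AAA. As for Timd4, the groups did not overlap. Cd5l was 6.22-fold lower in c-MYC/FOXO1AAA tumors than in c-MYC/pT3 (log2 fold change -2.64, SE 0.36, adjusted p = 0.000598). Against NL, the value was -1.64 (SE 0.33, adjusted p = 0.0098) in c-MYC/FOXO1AAA. That call was lost with an equal FPKM total (-0.54, adjusted p = 0.654) and against a threshold of 2-fold (adjusted p = 0.0917). The call between the tumors, by contrast, held in every alternative. The c-MYC/pT3 value of 1.0 (SE 0.33) against NL did not pass (adjusted p = 0.22). It passed without a fold threshold (adjusted p = 0.0196) and, at 1.92, with an equal FPKM total (adjusted p = 0.00183).

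Among the general genes, Cd68 and Lyz2 rose in both tumor types. Cd68 encodes a glycoprotein of lysosomes and endosomes and lies at chr11:69664213-69666153 (minus strand). Its FPKM was 9.15, 4.58, 6.84 and 7.53 in NL, 33.5, 32.2 and 37.9 in c-MYC/pT3, and 18.8, 31.0 and 19.99 in c-MYC/FOXO1AAA. Every tumor library was above every NL library, and every c-MYC/pT3 library was above every c-MYC/FOXO1AAA library. Cd68 was 5.05-fold higher in c-MYC/pT3 than in NL (log2 fold change 2.34, SE 0.23, adjusted p = 4.27e-05) and 3.33-fold higher in c-MYC/FOXO1AAA than in NL (1.73, SE 0.23, adjusted p = 0.000653). Between the tumors, the value of -0.60 (SE 0.25) did not pass (adjusted p = 0.956).

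Lyz2 encodes lysozyme of myeloid cells and lies at chr10:117277331-117282321 (minus strand). It stood at 47.8, 24.03, 36.6 and 37.3 FPKM in NL, at 194.4, 171.5 and 159.6 FPKM in c-MYC/pT3, and at 94.2, 132.0 and 154.3 FPKM in c-MYC/FOXO1AAA. The groups were ordered as for Cd68 and did not overlap. Lyz2 was 4.93-fold higher in c-MYC/pT3 than in NL (log2 fold change 2.30, SE 0.22, adjusted p = 3.94e-05) and 3.51-fold higher in c-MYC/FOXO1AAA than in NL (1.81, SE 0.22, adjusted p = 0.000331). The tumors differed by -0.49 (SE 0.24), which did not pass. Neutrophils and monocytes use Lyz2 as well, and of 7 neutrophil markers only S100a8 and S100a9 were in the table, with a summed FPKM of 1.32 to 4.90 in NL, 1.44 to 2.76 in c-MYC/pT3 and 1.19 to 15.8 in c-MYC/FOXO1AAA. Their part in the Lyz2 result was not tested.

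Csf1r encodes the receptor for CSF1 and IL-34, on which macrophages depend for survival, and lies at chr18:61100598-61132149 (plus strand). Its FPKM was 10.3, 8.24, 5.43 and 10.2 in NL, 5.08, 6.26 and 6.24 in c-MYC/pT3, and 2.27, 4.07 and 3.07 in c-MYC/FOXO1AAA. These last 3 libraries were below all others, whereas c-MYC/pT3 overlapped NL through replicate 3 of NL. Csf1r was lower in the c-MYC/FOXO1AAA tumors than in NL (log2 fold change -1.44, SE 0.25, adjusted p = 0.00661). That call was lost with an equal FPKM total (-0.34, adjusted p = 0.932) and against a threshold of 2-fold (0.12). The c-MYC/pT3 value of -0.50 (SE 0.25) against NL did not pass (adjusted p = 0.876) and turned to 0.42 with an equal FPKM total. Between the tumors, the value was -0.94 (SE 0.27, adjusted p = 0.298), and it passed without a fold threshold (0.0126).

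C1qa and Adgre1 did not pass the test in any of the 3 comparisons. C1qa encodes a chain of complement C1q, which macrophages make in large amounts, and lies at chr4:136895917-136898803 (minus strand). It stood at 76.5, 56.1, 44.5 and 82.6 FPKM in NL, at 75.2, 70.4 and 84.9 FPKM in c-MYC/pT3, and at 35.2, 59.2 and 76.5 FPKM in c-MYC/FOXO1AAA, and the 3 groups overlapped. Adgre1, which encodes the F4/80 antigen (chr17:57358691-57483527, plus strand), was at 2.72, 1.84, 1.56 and 1.90 FPKM in NL, at 2.16, 2.95 and 2.07 FPKM in c-MYC/pT3, and at 1.22, 2.44 and 1.63 FPKM in c-MYC/FOXO1AAA. These groups overlapped too. The log2 fold changes of C1qa were 0.28 (SE 0.27) in c-MYC/pT3 versus NL, -0.50 (SE 0.29) between the tumors and -0.22 (SE 0.27) in c-MYC/FOXO1AAA versus NL. Those of Adgre1 were 0.27 (SE 0.28), -0.48 (SE 0.30) and -0.21 (SE 0.28). With an equal FPKM total both were called higher in c-MYC/pT3 than in NL, C1qa at 1.21 (adjusted p = 0.0268) and Adgre1 at 1.20 (adjusted p = 0.0403).

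Counted by kind, the resident genes were called in both directions and, between the tumors, the general genes in neither. When c-MYC/pT3 was compared with NL, 3 of 5 resident genes were called lower and none higher, and 2 of 5 general genes were called higher and none lower. Of all 14017 genes tested, 48.1% were called in this comparison, 24.5% higher and 23.6% lower, so 5 called members of 10 is near the background share. When c-MYC/FOXO1AAA was compared with c-MYC/pT3, Clec4f was called higher, Cd5l and Timd4 were called lower, and none of the 5 general genes was called, where 28.7% of all genes were called (15.9% higher, 12.7% lower). So 3 called members of 10 is near the background share here too, and 5 general genes are too few to show a lower share. Without the fold threshold, Csf1r was the only general gene called in that comparison. When c-MYC/FOXO1AAA was compared with NL, 4 of 5 resident genes were called lower, 2 general genes were called higher and 1 lower, where 57.8% of all genes were called (31.2% higher, 26.6% lower). The last comparison shares its NL libraries with the first and its tumor libraries with the second.

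Groups without overlap were common among all genes. For c-MYC/pT3 versus NL, 4 members were higher and 3 lower in every tumor library, against 39% and 34.9% of all genes. Between the tumors, 2 members were higher and 5 lower in every c-MYC/FOXO1AAA library, against 32.7% and 30.7%. For c-MYC/FOXO1AAA versus NL, 2 members were higher and 6 lower in every tumor library, against 44.1% and 36%. The resident genes had a median log2 fold change of -1.93, 0.88 and -2.40 in the 3 comparisons, the general genes one of 0.28, -0.50 and -0.21, and all genes tested one of 0.08, 0.03 and 0.21.

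**Figure D2:**
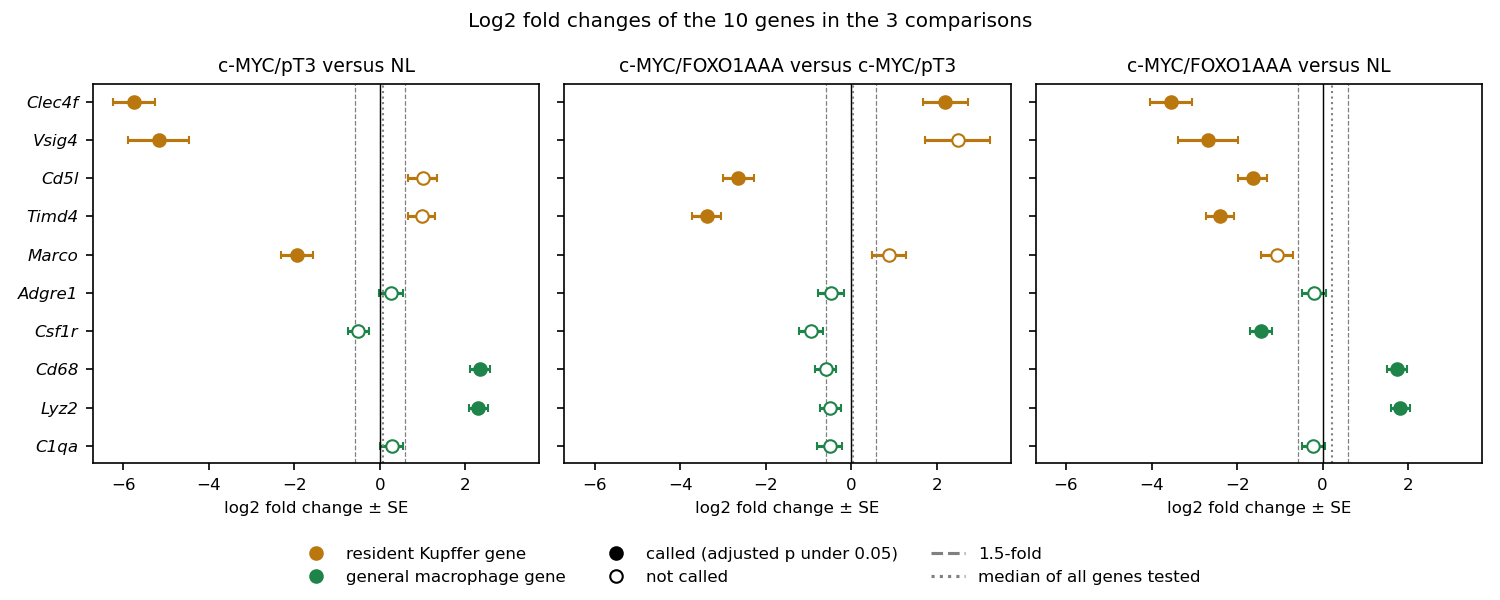
Log2 fold changes ± SE (x axis) of the 10 genes (y axis) in the 3 comparisons, with filled points for called genes, dashed lines at 1.5-fold and a dotted line at the median of all genes tested. The resident genes spread from -5.74 to 1.0 in c-MYC/pT3 versus NL and from -3.38 to 2.49 between the tumors, and the general genes from -0.50 to 2.34 and from -0.94 to -0.48.

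Differences between genes within a library do not depend on how libraries were scaled, and are given here as a description with no test. The mean log2 FPKM of the 5 resident genes minus that of the 5 general genes was 0.31 ± 0.16 in NL (SD over 4 libraries), -2.80 ± 0.81 in c-MYC/pT3 (SD over 3) and -2.29 ± 0.04 in c-MYC/FOXO1AAA (SD over 3). All 6 tumor libraries, from -3.71 to -2.17, were below the 4 NL libraries, from 0.19 to 0.55. The tumor types overlapped, and their difference of 0.51 was 0.06 without c-MYC/pT3 replicate 2 and 0.83 without replicate 3. It turned to -0.06 without Clec4f, to -0.13 without Vsig4 and to -0.18 when medians replaced means. Computing Clec4f with the length of its longest protein-coding transcript would move this difference by -0.40 in every library. The mean over the resident genes thus does not show the opposite order of the pairs.

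Within a library, Timd4 minus Clec4f was on the log2 scale -6.0 ± 0.14 in NL, 0.72 ± 1.42 in c-MYC/pT3 and -4.86 ± 0.87 in c-MYC/FOXO1AAA, with SD and n as before. The c-MYC/pT3 libraries, at 0.08, 2.35 and -0.27, were above all NL and c-MYC/FOXO1AAA libraries. Cd5l minus Clec4f moved likewise, from -2.68 ± 0.15 in NL to 4.06 ± 1.0 in c-MYC/pT3 and -0.78 ± 0.77 in c-MYC/FOXO1AAA. Vsig4 minus Clec4f stayed in a narrower range, at -3.94 ± 0.12 in NL, -3.37 ± 0.69 in c-MYC/pT3 and -3.07 ± 0.44 in c-MYC/FOXO1AAA. Marco minus Clec4f was -6.22 ± 0.35, -2.42 ± 0.65 and -3.74 ± 0.58 in the same order. The deposited Clec4f level was computed with a short, noncoding transcript, and at the length of the longest protein-coding one every difference from Clec4f would be higher by 2.02. Cd5l minus Clec4f in c-MYC/FOXO1AAA would then be 1.25 in place of -0.78, so the sign of such a difference depends on the length used, whereas its change between groups does not.

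With Csf1r as the reference, Clec4f minus Csf1r was 4.61 ± 0.15 in NL, -0.62 ± 1.32 in c-MYC/pT3 and 2.51 ± 0.40 in c-MYC/FOXO1AAA. Timd4 minus Csf1r was -1.39 ± 0.18, 0.10 ± 0.12 and -2.35 ± 0.47, with no overlap between the groups. Lyz2 minus Csf1r was 2.10 ± 0.52 in NL, 4.90 ± 0.31 in c-MYC/pT3 and 5.35 ± 0.32 in c-MYC/FOXO1AAA, so Lyz2 was higher beside Csf1r in all tumor libraries. Cd68 minus Csf1r gave -0.28 ± 0.49, 2.56 ± 0.18 and 2.89 ± 0.18. By contrast, C1qa minus Adgre1 was 5.01 ± 0.30, 5.02 ± 0.40 and 5.0 ± 0.49, and its group means differed by less than the spread between libraries.

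**Figure D3:**
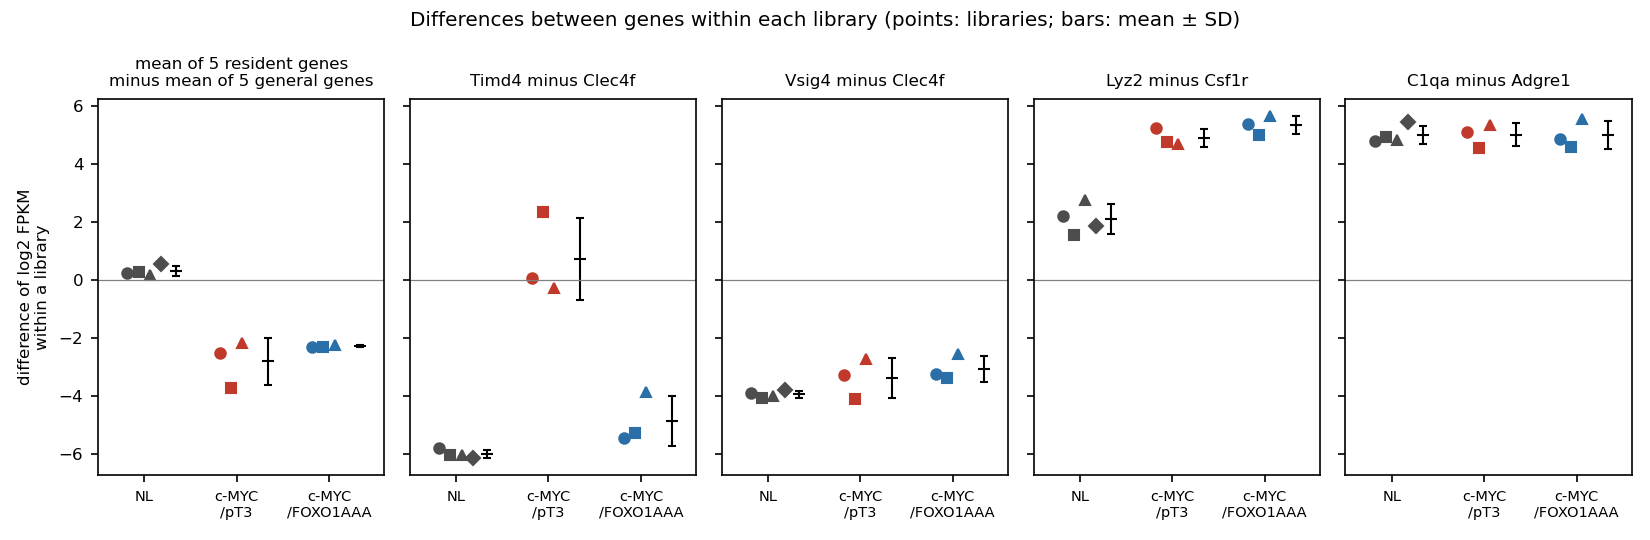
Differences of log2 FPKM between genes of the same library (y axis) in the 3 groups (x axis), with points for libraries and bars for the mean ± SD. Timd4 minus Clec4f is near -6 in NL and reaches 2.35 in c-MYC/pT3, whereas C1qa minus Adgre1 lies between 4.57 and 5.55 in all 10 libraries.

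The order of the genes by level changed with the group. In NL the mean FPKM was highest for Clec4f (208.1 ± 53.9, SD), followed by C1qa (64.95 ± 17.7), Lyz2 (36.4 ± 9.74) and Cd5l (33.0 ± 10.9), and lowest for Adgre1 (2.002 ± 0.5016). The Clec4f level was computed with a length of 608 bp, that of a noncoding transcript, where the longest protein-coding transcript has 2471 bp, and at that length its NL mean would be 51.2 FPKM. This touches its rank and the sign of its differences from other genes, and not its comparisons between groups. The NL ranges of C1qa and Lyz2 overlapped, as did those of Lyz2 and Cd5l, of Vsig4 and Csf1r, of Csf1r and Cd68, and of Timd4, Marco and Adgre1. In c-MYC/pT3, Lyz2 (175.1 ± 17.7) led, followed by C1qa (76.8 ± 7.37) and Cd5l (64.2 ± 15.6), whose ranges overlapped, and Vsig4 was last (0.577 ± 0.514). The Vsig4 range there, 0.0827 to 1.109 FPKM with 0 reads in its lowest library, enclosed that of Marco, 0.420 to 0.967 FPKM. In c-MYC/FOXO1AAA, Lyz2 (126.8 ± 30.4) led again, and Timd4 was last (0.634 ± 0.253).

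Libraries of the same group differed in these genes. In NL, replicate 3 was lowest for 7 of the 10 genes, and replicates 1 and 4 were highest for 6 and 4 of them. In c-MYC/FOXO1AAA, replicate 1 was lowest for 9 of the 10 genes, Clec4f being the exception. In c-MYC/pT3, replicate 2 was lowest for 6 genes, Clec4f, Vsig4 and Marco included, and highest for Timd4, Adgre1 and Csf1r. The highest c-MYC/pT3 value was 5.19 times the lowest for Clec4f and 13.4 times for Vsig4, against 1.18 times for Cd68, 1.31 times for Timd4 and 1.21 times for C1qa.

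Other genes of Kupffer cells were also called in both directions in c-MYC/pT3 versus NL and between the tumors, as were genes at large. Of all genes tested, 24.5% were called higher and 23.6% lower in c-MYC/pT3 versus NL. Between the tumors, the shares were 15.9% and 12.7%. Of 10 such genes, 8 passed the filter on low values, and in c-MYC/pT3 versus NL 1 was called higher and 4 were called lower, with a median log2 fold change of -1.11. Spic, a transcription factor of macrophages that recycle iron, rose by 2.37 (SE 0.34, adjusted p = 0.000526), and Id3, a transcription regulator that Kupffer cells need, fell by 4.76 (SE 0.26, adjusted p = 1.81e-07). Between the tumors, 1 was higher and 4 were lower, with a median of -1.10. Id3 was higher in c-MYC/FOXO1AAA tumors than in c-MYC/pT3 by 5.42 (SE 0.28, adjusted p = 2.67e-07), and Fcna, a ficolin of macrophages, fell by 3.78 (SE 0.30, adjusted p = 7.31e-06). Spic was also lower there, at -3.22 (SE 0.36, adjusted p = 0.000101), as Cd5l and Timd4 were. Nr1h3, the nuclear receptor LXRα, was at -2.36 (SE 0.19, adjusted p = 8.34e-06) in c-MYC/pT3 versus NL and at -0.80 between the tumors, and was chosen after its values were seen. Hepatocytes and other liver cells express Id3, Nr1h3, Slc40a1 and Hmox1 of this list as well. For c-MYC/FOXO1AAA versus NL, 5 of the 8 were lower and none higher, against 26.6% and 31.2% of all genes.

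Of 22 other macrophage genes, 19 were tested, and in c-MYC/pT3 versus NL 3 were higher and 2 lower, with a median of 0.02. Of all genes tested, 24.5% were higher and 23.6% lower there. Lgals3, which encodes galectin-3, rose by 2.68 (SE 0.27, adjusted p = 3.31e-05). Between the tumors, 2 were higher and 4 lower, with a median of -0.53, where 15.9% and 12.7% of all genes were. There, Cd14, the co-receptor for endotoxin, was higher by 3.35 (SE 0.29, adjusted p = 1.42e-05), and Cd86, a ligand that costimulates T cells, was at -2.81 (SE 0.52, adjusted p = 0.00379). C1qb and C1qc, which encode the other chains of C1q and were chosen after their values were seen, had values of 0.83 and 0.72 in c-MYC/pT3 versus NL and of -0.81 and -0.79 between the tumors, and did not pass, as C1qa did not. For c-MYC/FOXO1AAA versus NL, 2 of the 19 were higher and 4 lower, against 31.2% and 26.6% of all genes.

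Of 5 macrophage growth factors and receptors, 4 were tested. Csf1, the ligand of Csf1r, fell by 2.22 (SE 0.24, adjusted p = 8.95e-05) in c-MYC/pT3 versus NL and was the only one called there, and none was called between the tumors. Of 11 genes of monocytes and recruited macrophages, 7 were tested, with 2 higher and 2 lower in c-MYC/pT3 versus NL and 3 higher and 1 lower between the tumors. Over all genes tested, the shares higher and lower were 24.5% and 23.6% in c-MYC/pT3 versus NL, and 15.9% and 12.7% between the tumors. Gpnmb, a glycoprotein of lipid-laden macrophages that some tumor cells also make, rose by 4.83 (SE 0.46, adjusted p = 9.49e-06) in c-MYC/pT3 versus NL. The NL libraries held only 0 to 2 reads of Gpnmb, so the size of this change is uncertain, and the gene passed the filter through tumor libraries alone. Spp1, which encodes osteopontin, fell by 3.73 (SE 0.26, adjusted p = 1.19e-06) there and was higher in c-MYC/FOXO1AAA tumors than in c-MYC/pT3 by 4.11 (SE 0.27, adjusted p = 1.92e-06). Arg1 was lower in both comparisons, at -3.73 (SE 0.33, adjusted p = 9.08e-06) and -2.51 (SE 0.35, adjusted p = 0.00084), and as an enzyme of the urea cycle it is abundant in hepatocytes. Trem2, a receptor of recruited macrophages, was chosen after its values were seen. It was 0.638 ± 0.325 FPKM in NL, 1.49 ± 0.450 in c-MYC/pT3 and 9.55 ± 2.57 in c-MYC/FOXO1AAA. Between the tumors it was called (2.70, SE 0.52, adjusted p = 0.00518). Ly6c2 and Ccr2 of the same list were likewise chosen after their values were seen. Ly6c2 was not called between the tumors (-1.14, SE 0.92, adjusted p = 0.72). Ccr2, at 0.528 ± 0.174 FPKM in c-MYC/pT3 and 0.416 ± 0.179 in c-MYC/FOXO1AAA, did not pass the filter on low values.

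**Figure D4:**
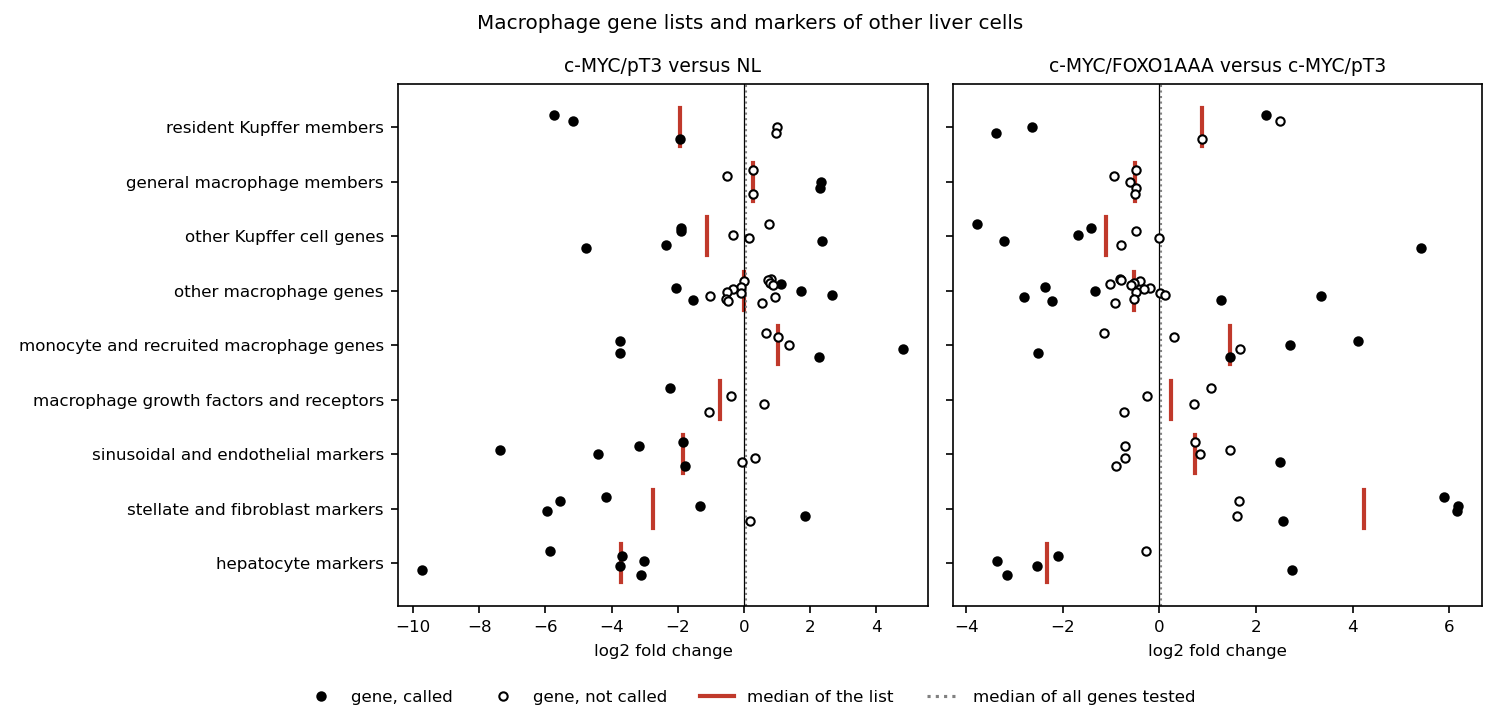
Log2 fold changes (x axis) of the tested genes of 9 lists (y axis), with filled points for called genes and a red bar at the median of each list. In c-MYC/pT3 versus NL the medians of the resident members (-1.93) and of the sinusoidal (-1.84), stellate (-2.74) and hepatocyte (-3.71) lists are below 0, and that of the general members is 0.28.

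Markers of the cells around the macrophages moved too. All 6 hepatocyte markers and 5 of 7 sinusoidal and endothelial markers were lower in c-MYC/pT3 than in NL, with medians of -3.71 and -1.84. Of all genes tested, 23.6% were called lower there. Clec4g, a lectin of sinusoidal endothelium, fell by 7.37 (SE 0.38, adjusted p = 7.21e-08), whereas Pecam1 of all endothelium was at 0.34 (SE 0.30) and did not pass. The c-MYC/pT3 libraries held only 0 to 5 reads of Clec4g, so the size of its fall is uncertain. The summed FPKM of 8 endothelial markers was 55.2 to 71.2 in NL, 11.2 to 19.3 in c-MYC/pT3 and 29.0 to 43.2 in c-MYC/FOXO1AAA. Without Cdh5, the sum of the other 7 was 51.3 to 66.9, 8.02 to 13.2 and 7.44 to 10.9 in the same order, and the tumor types overlapped. Between the tumors, 1 endothelial marker, Cdh5, was called higher (2.49, SE 0.27, adjusted p = 0.000143), and the median of the 7 tested was 0.73. Pecam1 (-0.71), Kdr (-0.90) and Stab2 (-0.72) were not called. Clec4g (1.47), Oit3 (0.83) and Stab1 (0.73) were not called either, so the uncalled markers went both ways. Stab1, Stab2 and Oit3 were chosen after their values were seen. Of the hepatocyte markers 4 were lower and Cyp2e1 was higher (2.75, SE 0.63, adjusted p = 0.0136), where 12.7% of all genes were lower and 15.9% higher. The part of these cells in the results for the 10 genes was not tested.

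The genes most like Clec4f over the 10 libraries were C6, Slc13a3, Cyp4f14, Tdo2 and Aldh1a1, by Pearson's r of log2 FPKM (0.9957 to 0.9924, among 13997 other genes). Of the members, Vsig4 followed at 0.979 (rank 58) and Marco at 0.938 (rank 576), while Timd4 was at -0.092 and Lyz2 at -0.912. The genes most like Csf1r were Pltp, Lhx6, Inhbe, Treml4 and Shank2 (0.9787 to 0.9596), and the nearest of the members was Timd4 at 0.771 (rank 2023). For Timd4, which was added after its values were seen, Cd5l was at 0.972 (rank 39), behind genes such as Bco1 (0.9929) and Ctsb (0.9847). These values describe 10 libraries of 3 groups that share their scaling, and the differences between the group means enter them.

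Another scaling moved most comparisons with NL. With an equal FPKM total in each library, the median over all genes moved from 0.08 to 1.01 in c-MYC/pT3 versus NL, from 0.21 to 1.31 in c-MYC/FOXO1AAA versus NL and from 0.03 to 0.20 between the tumors. Of all genes, 7061 were then called higher and 1895 lower for c-MYC/pT3 versus NL, where 3435 and 3305 were called on the deposited scale. For c-MYC/FOXO1AAA versus NL, the counts were 8129 and 2099 instead of 4371 and 3728. Clec4f remained lower in c-MYC/pT3 than in NL (-4.81, adjusted p = 1.32e-05), as did Vsig4 (-4.24, adjusted p = 0.000521), and Cd68 (3.26) and Lyz2 (3.23) remained higher. For c-MYC/FOXO1AAA versus NL, Clec4f (-2.45, adjusted p = 0.00289) and Timd4 (-1.31, adjusted p = 0.0259) remained lower, whereas the calls of Vsig4 (-1.58, adjusted p = 0.131), Cd5l and Csf1r were lost. Between the tumors, Timd4 (-3.21, adjusted p = 3.73e-05), Cd5l (-2.47, adjusted p = 0.000791) and Clec4f (2.37, adjusted p = 0.0142) remained called, and Vsig4 was called too (2.66, adjusted p = 0.0385). Between the tumors, all 10 members kept their direction in every alternative.

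**Figure D5:**
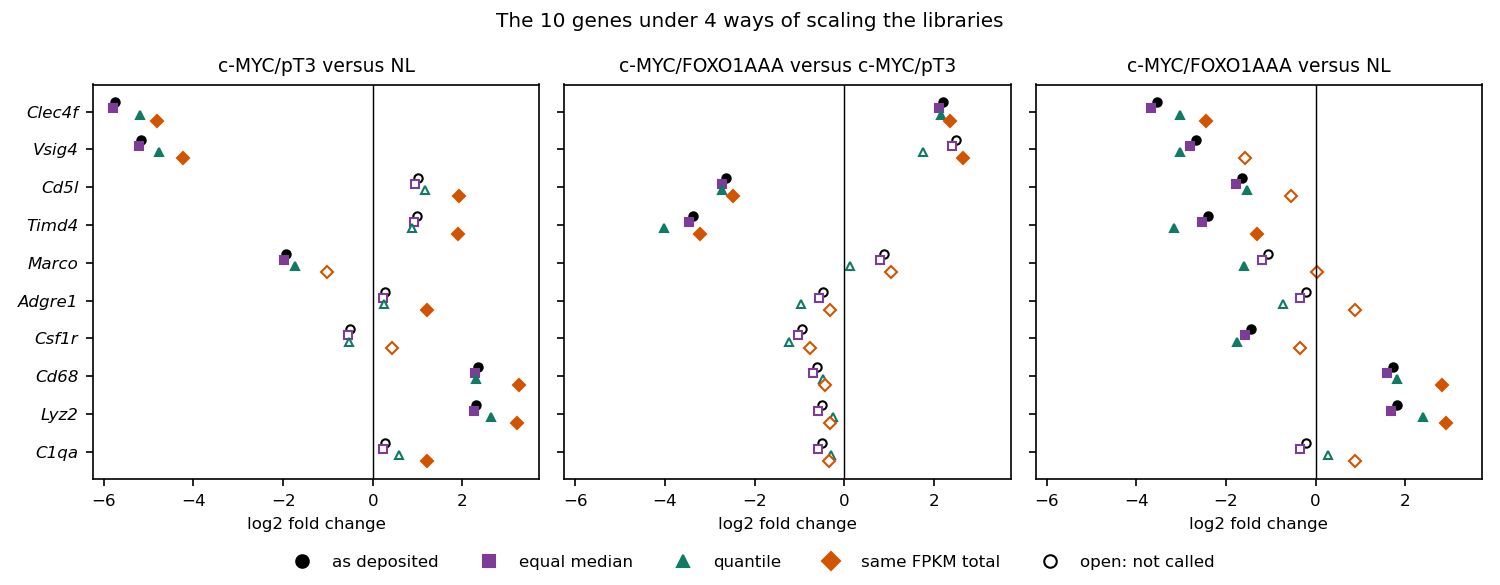
Log2 fold changes (x axis) of the 10 genes (y axis) in the 3 comparisons under the deposited scale, an equal median, quantile normalization and the same FPKM total, with open points for genes not called. The same FPKM total shifts the comparisons with NL to the right, so that Csf1r turns from -0.50 to 0.42 in c-MYC/pT3 versus NL, and moves Timd4 between the tumors from -3.38 to -3.21.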

How the data were processed

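RNA was extracted from bulk liver or tumor tissue, and libraries were made from total RNA by polyA capture or removal of rRNA, per the labels. The authors counted reads by gene, converted identifiers to symbols and tested the counts in R. The processing notes of the submitters name FastQC 0.11.7 and GRCm38, and the aligner and counter are not given in the sources used here. The deposited values are log2 FPKM, formed by the authors with a prior count of 2, which understates the change of low genes. Of 17069 entries, 372 held neither symbol nor value. Whole reads were recovered by finding the gene length at which all libraries gave whole numbers within 0.002 reads (97.34% of genes had a single length up to 130000 bp).

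A gene was tested if its FPKM reached 1 in 3 or more libraries (14017 genes). The model, limma 3.58.1 in R 4.3.3 with statmod 1.5.0, took all 10 libraries with a mean for each group. The function treat, with trend and robust estimation, tested 2-sided against a 1.5-fold change, and a gene was called at an adjusted p under 0.05 (Benjamini-Hochberg, over all genes tested). In simulated data of c-MYC/FOXO1AAA versus c-MYC/pT3 over 13478 genes, 99 of 100 genes changed 4-fold and 34 of 100 changed 2.5-fold were called. No unchanged gene was called. The changed genes were drawn from genes with many reads, and all genes were given the same spread between replicates beyond counting error. These shares therefore need not hold for members with few reads or a wide spread, such as Vsig4 in c-MYC/pT3. GENCODE M21 (GRCm38) gave the positions.

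The members and lists were chosen with earlier results of these data known. The text names all members and, from each list, the genes with the largest and smallest change in c-MYC/pT3 versus NL and between the tumors, and the 5 genes most like Clec4f and Csf1r. Other genes are said to be chosen after their values were seen, and 1 gene that the rule names is not reported here. Alternatives were other pseudocounts, filters, scalings, thresholds and variance settings, only 2 groups, a replicate block, voom on recovered reads, and each library left out. Counting limits cover counting error only.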

Additional observations from a re-analysis of the deposited data

How the results depend on the processing

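Over the 30 log2 fold changes of the members, 651 values under the alternatives kept their direction and their side of the threshold, 13 newly passed it, 10 no longer passed it and 7 turned direction. Rescaling to the same FPKM total called 8 members in c-MYC/pT3 versus NL (5 on the deposited scale) and 4 in c-MYC/FOXO1AAA versus NL (7). It turned Csf1r to 0.42 in c-MYC/pT3 versus NL and, in c-MYC/FOXO1AAA versus NL, Marco to 0.04, Adgre1 to 0.88 and C1qa to 0.88. Quantile normalization turned C1qa to 0.27 there, and leaving out c-MYC/FOXO1AAA replicate 1 turned Adgre1 to 0.02 and C1qa to 0.09, at the upper end of ranges that began at -0.48 and -0.47 over the libraries left out. None of these values had passed the test on the deposited scale. With no fold threshold, 5 members were called between the tumors (3 with it), and 10432 genes in c-MYC/pT3 versus NL (6740) and 7688 between the tumors (4016). A mean FPKM of at least 5, which leaves fewer genes tested, called 2280 genes between the tumors and 5211 in c-MYC/FOXO1AAA versus NL (8099).

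The resident minus general difference in c-MYC/pT3 versus NL was -3.11, and became -3.87 with medians, -2.47 with a pseudocount of 1, -2.22 without Clec4f, -2.36 without Vsig4, -3.90 without Cd5l and -3.90 without Timd4. Between the tumors it was 0.51, and became -0.18 with medians, -0.06 without Clec4f, -0.13 without Vsig4, 1.15 without Cd5l and 1.33 without Timd4. In c-MYC/FOXO1AAA versus NL it was -2.60, and became -4.05 with medians, -2.22 with a pseudocount of 1, -2.28 without Clec4f, -2.76 without Cd5l, -2.90 without Marco, -2.74 without Adgre1, -3.04 without Csf1r, -2.25 without Cd68, -2.23 without Lyz2 and -2.74 without C1qa. Apart from the construction of each alternative, the cause of these shifts was not tested.

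Leaving out each library in turn called 5 members in c-MYC/pT3 versus NL each time, 2 to 4 between the tumors and 7 in c-MYC/FOXO1AAA versus NL each time. The counts over all genes were 6385 to 6794, 3593 to 4022 and 7681 to 8161, and the resident minus general difference was -3.43 to -2.66, 0.06 to 0.83 and -2.64 to -2.52. Between the tumors, 2 members were called without c-MYC/FOXO1AAA replicate 1 or replicate 2 and 4 without c-MYC/pT3 replicate 3, and the differences of 0.06 and 0.83 were found without c-MYC/pT3 replicate 2 and replicate 3. Replicate numbers did not pair the libraries, since the deviations of libraries with the same number correlated at -0.04 to 0.027. With the replicate number as a block, 6407, 3852 and 7810 genes and 5, 2 and 7 members were called, and Clec4f between the tumors was at an adjusted p of 0.0512.

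Depth limits Vsig4 and Clec4f in c-MYC/pT3, with 0 to 27 and 14 to 80 reads, and Timd4 in c-MYC/FOXO1AAA, with 17 to 39 reads.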

Other observations

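The list of 6 stellate and fibroblast markers had the largest list median between the tumors, 4.23. Of these markers, 4 were called higher in c-MYC/FOXO1AAA and none lower, against 15.9% and 12.7% of all genes. Lrat (1.64, SE 0.55, adjusted p = 0.128) and Col1a1 (1.61, SE 0.55, adjusted p = 0.141) were not called. Lrat, which was chosen after its values were seen, was called lower in c-MYC/FOXO1AAA than in NL (-3.93, SE 0.52, adjusted p = 9.3e-05), where 4 markers were called higher. Of all genes tested, 31.2% were called higher and 26.6% lower in c-MYC/FOXO1AAA versus NL. Whether the number of these cells differed was not tested. Des, which encodes desmin, was 2.17 ± 0.499 FPKM in NL (SD, n = 4), 0.916 ± 0.350 in c-MYC/pT3 (SD, n = 3) and 62.7 ± 6.02 in c-MYC/FOXO1AAA (SD, n = 3). In c-MYC/pT3 versus NL, 4 of the 6 were lower and 1, Col1a1, was higher (log2 fold change 1.86, SE 0.52, adjusted p = 0.0363). Of all genes tested, 23.6% were lower and 24.5% higher in that comparison.

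Of 8 markers of T, NK and B cells, 2 were tested, and between the tumors Cd79a, a chain of the B cell receptor complex, was higher (5.42, SE 0.67, adjusted p = 0.000127) and Cd4 was lower (-1.53, SE 0.37, adjusted p = 0.0474). Cd79a was 0.374 ± 0.355 FPKM in NL, 0.217 ± 0.0206 in c-MYC/pT3 and 9.52 ± 2.48 in c-MYC/FOXO1AAA. Of 5 dendritic cell markers, only Clec9a was tested, and it was not called in c-MYC/pT3 versus NL or between the tumors, but was called lower for c-MYC/FOXO1AAA against NL (adjusted p = 0.0111), on 2 reads in each library against 3 to 12 in NL. Neither of the 2 neutrophil markers tested was called. Of 6 erythroid and platelet markers, 5 were tested, with 4 lower in c-MYC/pT3 than in NL and 2 higher in c-MYC/FOXO1AAA tumors than in c-MYC/pT3. The shares of all genes were 23.6% lower in the former comparison and 15.9% higher in the latter.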
